A study of Saccharomyces cerevisiae with 8 samples.

Results

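Total RNA was compared between 2 budding yeast strains after 1 h in rapamycin: a strain with Dbp2, an RNA helicase, fused to FRB-GFP, and its untagged parent. The comparison took the 4 libraries of 8 in the series that came from rapamycin-treated cells, 2 biological replicates of each strain, and it covered every yeast feature with enough signal, 9656 of the 10799 in the table. Both strains were Saccharomyces cerevisiae of the W303 background, MATalpha, GAL and psi+, with the alleles ura3 and his3-11,15, the leu2 double mutation leu2-3 with leu2-112, and also can1-100, trp1-1 and ade 2-1. Both also carried tor1-1, fpr1::NAT and RPL13A-2xFKBP12::TRP1. The tagged strain added DBP2-FRB-GFP-KanMX6, which the labels state under the source name while the genotype entry leaves it out. Cells grew in YPD at 30 °C to an OD600 of 0.5, and rapamycin was added at 1 µg/mL to both strains. Libraries were stranded and were made from 125 ng of rRNA-depleted RNA with synthetic spike-in RNAs present in every library.

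Dbp2 is a DEAD-box protein that unwinds RNA duplexes, is found mostly in the nucleus, and is known for roles in the assembly of mRNA with its binding proteins, in transcription termination and in ribosome biogenesis. In the anchor-away method rapamycin ties an FRB-tagged protein to an FKBP12 fusion of a ribosomal protein, and the tagged protein leaves the nucleus with newly made ribosomal subunits. The tor1-1 allele and the loss of FPR1 are used so that rapamycin itself does not stop growth through TOR. The amount of Dbp2 left in the nucleus was not measured here. The comparison with rapamycin therefore holds the effect of the drug-bound tag together with any effect of the tag or strain itself, and the untreated libraries of the same strains are used at the end to show how far the same differences were present without the drug.

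Depth was 22523077 to 27500112 yeast reads per library over the series, and spike-ins took 2.93 and 3.19% of reads in the tagged rapamycin libraries against 4.05 and 3.86% in the parental rapamycin libraries. The tagged rapamycin replicates stood further apart from each other than other pairs, differing by a chi-square of 20.1 per degree of freedom, against 5.01 to 9.17 in the other groups. DBP2 itself (chrXIV:413639-416281, plus strand, R64) read 2.29 and 2.59 reads per nucleotide in the parental libraries and 4.33 and 2.86 in the tagged ones. Its groups did not overlap, and the log2 difference was 0.53 ± 0.16 (SE, adjusted p = 0.00592, limma), near the median of all features. The call was lost without tagged rapamycin replicate 1 (0.23, adjusted p = 0.186) and without parental rapamycin replicate 1 (0.44, adjusted p = 0.0568). It was also lost on the other 3 scales described below, with 0.036 on the coding scale, 0.13 after quantile normalization and -0.14 on the snoRNA scale. FPR1, which is replaced by a marker in both strains, stayed between 0.112 and 0.135 in the 4 libraries.

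RNA of most features was higher in the tagged strain on the deposited scale, which sets libraries equal by their spike-ins. The median feature was 0.59 higher on the log2 scale. The limma test called 6803 features higher (70.5% of those tested) and 206 lower (2.13%), at an adjusted p under 0.05. In bulk RNA, fewer cells and less RNA per cell cannot be told apart, so the shift may be read only as RNA per spike-in. With each class set to the mean of the parental rapamycin libraries, protein-coding features stood at 1.53 and 1.31 in the tagged replicates and features of the mitochondrial genome at 1.41 and 1.36. The 2 parental libraries stayed between 0.954 and 1.05 in every class shown.

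**Figure D1:**
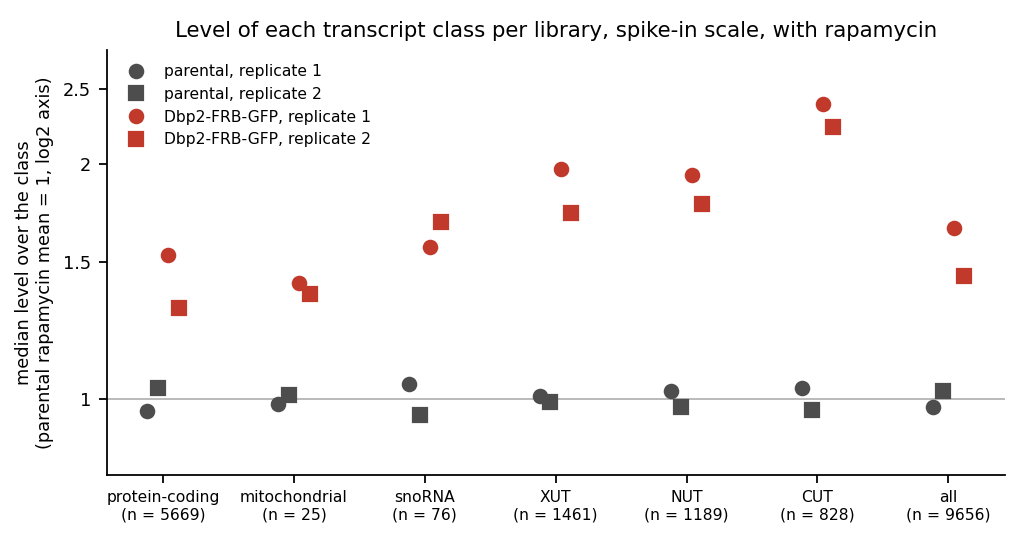
Median level of each transcript class in the 4 rapamycin libraries, relative to the mean of the parental libraries (log2 axis, spike-in scale; points are libraries, n is the number of features). Tagged libraries lie above parental ones in each class, from 1.31 in protein-coding features to 2.39 in CUTs.

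Scaling decided where the middle of this distribution lay. The median of all features moved from 0.59 to 0.13 when libraries were set equal on protein-coding features, to -0.04 on snoRNAs and to -0.02 after quantile normalization. The split of calls moved with it, to 2969 higher and 1743 lower, 1233 higher and 1011 lower, and 1963 higher and 2242 lower. For this reason a feature is said below to have risen or fallen only where limma called it in the same direction under each of the 4 scalings. The rule asked more of rises than of falls on the spike-in scale, since the other scalings lowered the median. Among members of the gene lists the smallest rise that counted was 1.11 (HHT2) and the smallest fall -0.31 (RPL3). A list with few or no rises may thus still have been higher on the spike-in scale. On the spike-in scale the 2 parental and 2 tagged values did not overlap in 83.1% of features with the tagged ones higher and 3.79% with the tagged ones lower. By the rule 880 features rose (9.11%) and 203 fell (2.1%), and these shares are the background given for the groups that follow. Noncoding classes raise the first share. Among protein-coding features, which make up most of the gene lists, 4.11% rose and 2.45% fell. The number that rose was 499 without parental rapamycin replicate 1 and 564 without tagged rapamycin replicate 1.

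A larger share of noncoding transcripts than of genes rose. Cryptic unstable transcripts (CUTs), which the nuclear exosome degrades soon after synthesis, moved most: 234 of 828 tested rose (28.3%) and 2 fell. Xrn1-sensitive unstable transcripts (XUTs), which accumulate when the cytoplasmic exonuclease Xrn1 is absent, had 216 of 1461 that rose (14.8%) and 33 that fell. Nrd1-unterminated transcripts (NUTs), which lengthen or appear when the termination factor Nrd1 is removed, had 138 of 1189 that rose (11.6%) and 20 that fell. Among 5669 protein-coding features 233 rose (4.11%) and 139 fell, and 129 rose with only the 4 libraries of the comparison in the fit. The median log2 difference on the spike-in scale was 1.03 for CUTs, 0.75 for XUTs, 0.74 for NUTs and 0.49 for protein-coding features. Scaled to protein-coding features these medians were 0.61, 0.33, 0.32 and 0.01, and after quantile normalization 0.26, -0.03, -0.01 and -0.06. CUTs thus had the highest median of these classes under each scaling, while XUTs and NUTs lay near the protein-coding median after quantile normalization.

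These counts rested on few libraries. Without parental rapamycin replicate 1 the number that rose was 154 CUTs, 130 XUTs, 73 NUTs and 103 protein-coding features. Without tagged rapamycin replicate 1 it was 141 XUTs, 90 NUTs and 129 protein-coding features. Without parental rapamycin replicate 2 it was 74 NUTs and 153 protein-coding features, and without tagged rapamycin replicate 2 it was 79 NUTs and 379 protein-coding features.

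Noncoding transcripts are mostly low, and low features also moved more among genes. Classes were therefore set side by side at like levels in the untreated parental libraries, which are not among those compared in this contrast. At a density of 0.01 to 0.03 reads per nucleotide the median log2 difference was 0.67 for protein-coding features, 0.74 for XUTs, 0.76 for NUTs and 0.99 for CUTs. At 0.03 to 0.1 it was 0.64, 0.73, 0.70 and 1.06, and at 0.1 to 0.3 it was 0.52, 0.72, 0.63 and 0.98. At like levels XUTs and NUTs lay nearer to genes than CUTs did. The share of CUTs that rose was 19.6, 35.1 and 39.7% in these ranges against 12.4, 9.5 and 3.56% of protein-coding features. Admission to the test rested on the mean over all 8 libraries, tagged ones included. At 0.01 to 0.03 the least-read features were thus tested only where other libraries held more. This can raise the medians and shares of that range in every class.

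**Figure D2:**
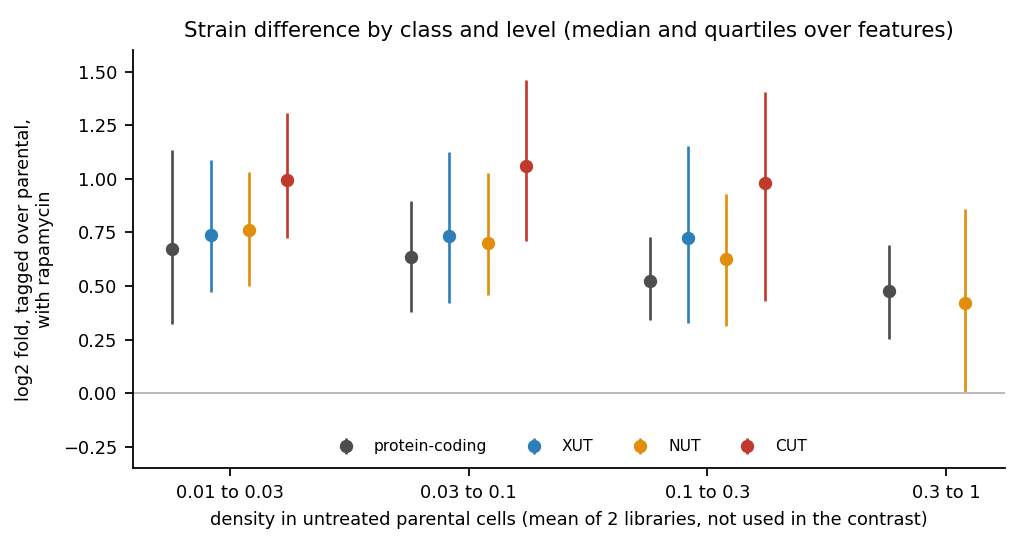
Strain difference with rapamycin (log2, spike-in scale) by transcript class and by level in untreated parental cells (reads per nucleotide); points are medians and bars the quartiles over features. CUTs lie near 1.00 in the lower ranges, with medians of 0.99, 1.06 and 0.98, above the other classes.

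The noncoding features with the lowest p included some of the largest differences in the data. CUT567 read 2.82 and 2.70 reads per nucleotide in the parental libraries and 26.6 and 23.8 in the tagged ones, a log2 difference of 3.19 ± 0.13. The low XUT0696 read 0.0406 and 0.0381 against 0.386 and 0.339 (2.99 ± 0.17), on 9 and 9 reads against 74 and 60. Both had groups far from overlapping. CUT627 rose by 3.03 and CUT866 by 2.91, XUT0506 by 3.46 and XUT1354 by 3.29, the XUT pair from 3 to 10 parental reads per library. Among those that fell was NUT1033, with 0.452 and 0.386 against 0.0934 and 0.0552 (-2.42 ± 0.19). XUTs, CUTs and NUTs overlap genes and each other, and whether counting used the strand is not stated, so some of their reads may belong to a partner. One case is plain in the reads: NUT0227 held 308, 78, 2877 and 2098 reads and the stress gene HSP12 held 308, 78, 2876 and 2096.

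Phosphate genes were among the groups that fell. They encode phosphatases and transporters that the transcription factor Pho4 turns on when phosphate is short. Of 27 members 10 fell (2.1% in all features) and 1 rose, and the list's median was -0.10 against 0.59 over all features tested. PHO5, the main secreted acid phosphatase (chrII:429548-430951, minus strand, R64), read 11.1 and 10.8 in the parental libraries and 2.16 and 1.66 in the tagged ones. That is 5.74-fold lower, with groups far apart (-2.53 ± 0.14 on the log2 scale, adjusted p = 1.49e-11, limma). PHO12 and PHO11, near-identical acid phosphatases that may share reads, fell by 1.88 and 1.68. GIT1, a glycerophosphoinositol transporter, fell by 1.59 and PHM6 by 1.59.

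The high-affinity phosphate transporter PHO84 separated less well, with 34.8 and 35.9 against 27.9 and 15.7. Its tagged replicates differed widely and still lay below both parental libraries (-0.76 ± 0.17, adjusted p = 0.000664). PHO89, the sodium-phosphate cotransporter, read 0.780 and 0.724 against 0.497 and 0.311. PHO8, VTC2 and VTC3, which serve vacuolar phosphate, completed the 10, the smallest change of the list being that of VTC2 at -0.34. PHM7, the member that rose (1.59), is also on the list of stress genes. Between 8 and 13 members fell when each library was left out in turn.

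Genes of sulfate assimilation and methionine synthesis fell as a second group. Of 34 tested 14 fell and 0 rose, with a list median of -0.22. MET6, the methionine synthase, read 12.4 and 12.3 against 5.46 and 4.42 (-1.33 ± 0.14, adjusted p = 1.07e-07). MET17, which builds homocysteine from sulfide, read 11.8 and 10.5 against 5.25 and 4.46. In both genes every parental value lay above every tagged value. MET2, which activates homoserine, fell the most (0.224 and 0.198 against 0.0740 and 0.0593, -1.57 ± 0.16). The S-adenosylmethionine synthetase SAM2 fell by 1.15, the sulfate permease SUL2 by 1.17, the adenylylsulfate kinase MET14 by 0.81 and the S-methylmethionine methyltransferase MHT1 by 0.97. MET5, MET3, SAM1, SAM3, MUP1, STR3 and CYS3 also fell, CYS3 the least at -0.33. The count was 10 without parental rapamycin replicate 1.

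Promoter sequence around the known binding motif is shown for genes of both groups, since Pho4 and the methionine regulator Cbf1 are known to bind the same core, CACGTG. Stretches come from the RefSeq annotation and genome of build R64, 5′ to 3′ on the gene's own strand, with CACGTG, or the weaker Pho4 form CACGTT, in capitals.
PHO5, chrII:431184-431328 (minus strand): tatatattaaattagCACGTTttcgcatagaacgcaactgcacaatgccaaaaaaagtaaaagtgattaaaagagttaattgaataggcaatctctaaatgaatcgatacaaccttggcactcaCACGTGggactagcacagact
PHO84, chrXIII:26194-26251 (minus strand): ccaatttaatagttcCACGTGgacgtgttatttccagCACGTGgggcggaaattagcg
MET17, chrXII:732227-732262 (plus strand): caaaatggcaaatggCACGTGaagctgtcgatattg
MET14, chrXI:439593-439628 (minus strand): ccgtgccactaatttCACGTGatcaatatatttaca
MET2, chrXIV:116981-117016 (plus strand): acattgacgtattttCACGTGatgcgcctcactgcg
SAM2, chrIV:1454767-1454802 (minus strand): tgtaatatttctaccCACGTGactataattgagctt
MET6, chrV:342642-342667 (minus strand): tatttCACGTGacttacaaacagagt

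Searched over 500 bases before each start on both strands, CACGTG stood before 9 of the 14 sulfur genes that fell and 11 of the other 20 tested members. It stood before 8 of the 10 phosphate genes that fell and 9 of the other 17. Of all 5669 promoters searched, 354 held it (6.24%). With CACGTT added, the phosphate counts were 9 of 10 and 12 of 17, beside 1206 of all promoters (21.3%). Members that did not fall held the motif in most cases too, and a match is a description of the letters and no evidence of binding.

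Oxidoreductase and glutathione genes made up the third group. Of 54 tested 14 fell and 3 rose (GPX1, CTT1 and CTA1, which remove peroxides), with a list median of 0.20. GTT2, a glutathione transferase, read 1.35 and 1.08 against 0.270 and 0.216 (-2.29 ± 0.16, adjusted p = 3.93e-10). YNL134C, an oxidoreductase of the quinone reductase type, read 6.68 and 5.71 against 1.39 and 1.22 (-2.24 ± 0.14). OYE3, an NADPH oxidoreductase of the old yellow enzyme family, read 0.393 and 0.254 against 0.0712 and 0.0649 (-2.10 ± 0.19). In all 3 genes the lowest parental library was above the highest tagged library by a wide margin. The OYE3 paralog OYE2 fell by 0.59. The efflux pump ATR1 fell by 1.55, the aryl-alcohol dehydrogenases AAD6 and AAD4 by 1.59 and 1.15, and OSI1 by 1.32. GSH1, which makes the first step of glutathione synthesis, read 1.78 and 1.71 against 0.781 and 0.715 (-1.22 ± 0.14), and the vacuolar pump YCF1, which exports glutathione conjugates from the cytosol, fell by 0.67. Between 13 and 14 members fell when each library was left out.

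The stress factor Yap1, which acts on many of these genes, is known to bind TTACTAA or TTAGTCA. One of these motifs stood before 11 of 13 genes of the list that fell and could be searched, before 20 of the other 40, and before 985 of all 5669 promoters (17.4%). Capitals mark them, TTAGTAA being the first read on the other strand, in R64 stretches from RefSeq.
ATR1, chrXIII:37772-37808 (plus strand): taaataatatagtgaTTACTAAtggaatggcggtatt
OYE3, chrXVI:227498-227598 (minus strand): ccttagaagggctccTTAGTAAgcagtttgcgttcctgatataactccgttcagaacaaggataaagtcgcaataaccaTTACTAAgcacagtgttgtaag
GSH1, chrX:236719-236755 (minus strand): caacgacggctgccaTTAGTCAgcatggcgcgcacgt

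Nitrogen-catabolite genes, which GATA factors turn on when good nitrogen sources are gone, were among those that fell. Of 42 tested 16 fell and 0 rose, with a list median of -0.09. DAL5, the allantoate permease, read 0.291 and 0.341 against 0.185 and 0.163 (-0.83 ± 0.16, adjusted p = 0.000109). DAL80, a GATA repressor, read 0.360 and 0.327 against 0.209 and 0.189 (-0.76 ± 0.15). The ureidoglycolate lyase gene DAL3 fell by 0.82, the peptide transporter PTR2 by 0.66, and the ammonium permease MEP2 by 0.53. The groups of these genes did not overlap. The asparaginase gene ASP3-1 had the largest drop of the 16 (-2.07), on 57 and 47 against 5 and 5 reads, which its near-identical copies share. The general amino acid permease GAP1 read 10.2 and 10.3 against 8.25 and 5.41 (-0.61 ± 0.16), and -0.31 without tagged rapamycin replicate 2 (adjusted p = 0.0562). Without that library 10 members fell, and 9 without parental rapamycin replicate 2.

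At least 2 copies of the GATA motif GATAAG, on either strand, stood before 12 of the 16 nitrogen genes that fell, 13 of the other 26 and 199 of all promoters (3.51%). Examples from R64, with the motif or its complement CTTATC in capitals, follow.
DAL80, chrXI:506593-506691 (plus strand): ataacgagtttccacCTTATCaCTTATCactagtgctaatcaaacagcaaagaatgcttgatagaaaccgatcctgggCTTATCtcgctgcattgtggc
DAL5, chrX:719258-719339 (plus strand): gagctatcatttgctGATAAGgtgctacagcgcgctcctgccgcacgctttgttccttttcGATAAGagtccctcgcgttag

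Glycolytic genes fell by small amounts from very high levels. Of 22 tested 6 fell and 0 rose, with a list median of -0.07. TDH2, a glyceraldehyde-3-phosphate dehydrogenase, read 50.4 and 51.6 against 31.3 and 26.8 (-0.82 ± 0.13, adjusted p = 1.44e-05), and its paralog TDH1 read 10.4 and 6.66 against 3.72 and 5.25. ENO2 read 271 and 285 against 218 and 196, and ADH1 read 178 and 183 against 134 and 126. Parental and tagged values did not overlap in any of these. The third paralog, TDH3, did not follow: it read 596 and 614 against 868 and 785, a log2 difference of 0.45 on the spike-in scale and -0.047, -0.23 and -0.088 on the others. The TDH genes are close copies and may share reads. PGK1 read 153 and 153 against 123 and 122, and its adjusted p of 0.0151 was 0.053 to 0.0656 without each of the 4 rapamycin libraries. The list count was 3 without parental rapamycin replicate 1.

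Of 64 genes of amino acid synthesis under the activator Gcn4, 5 fell and 0 rose: HIS4 (2.05 and 2.01 against 1.29 and 1.08), the serine genes SER3 and SER33, and the vitamin B6 pair SNZ1 and SNO1 (-1.01 and -1.24). The list median was 0.26. The vacuolar aminopeptidase gene APE1 read 0.681 and 0.635 against 0.222 and 0.173. The aquaporin gene AQY2 and the neighbouring reading frame YLL053C fell together, by 1.67 and 1.73. BSC1 and PRM7 fell by 1.99 and 1.44, with tagged replicates that differed widely (0.502 and 0.213 for BSC1).

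The lowest log2 difference of all features tested was that of a mating pheromone gene. MF(ALPHA)2, the minor gene for alpha-factor (chrVII:344791-345153, minus strand, R64), read 28.0 and 24.9 in the parental libraries and 1.73 and 1.58 in the tagged ones. That is 15.97-fold lower, with no approach between the groups (-3.99 ± 0.13, adjusted p = 1.33e-15, limma). MF(ALPHA)1, the major gene for the same pheromone, read 22.8 and 24.2 against 27.2 and 22.9, groups that overlap, and its log2 difference was 0.09 on the spike-in scale and -0.41, -0.59 and -0.44 on the others. SAG1, the alpha-agglutinin that binds partner cells, read 3.59 and 3.05 against 2.01 and 1.88 (-0.77 ± 0.14). STE3, the a-factor receptor, read 3.12 and 3.27 against 2.93 and 2.42, with a log2 difference of -0.26 that missed the threshold on the spike-in scale (adjusted p = 0.0991) and passed it on the others. HO, the endonuclease that starts mating-type switching, read 0.178 and 0.185 against 0.0358 and 0.0244 (-2.35 ± 0.18).

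Mating-type markers were checked against the MATalpha label. The 4 alpha-specific genes summed to 57.5 and 55.4 reads per nucleotide in the parental libraries and 33.8 and 28.8 in the tagged ones. The 7 a-specific genes summed to 0.268 and 0.194 against 0.680 and 0.582, so alpha-specific RNA was far above a-specific RNA in all 4 libraries. Of 6 a-specific genes tested, MFA1 was called higher under each scaling, on 6 and 0 reads in the parental libraries and 34 and 28 in the tagged ones. The part of any other cells in these values was not tested.

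**Figure D3:**
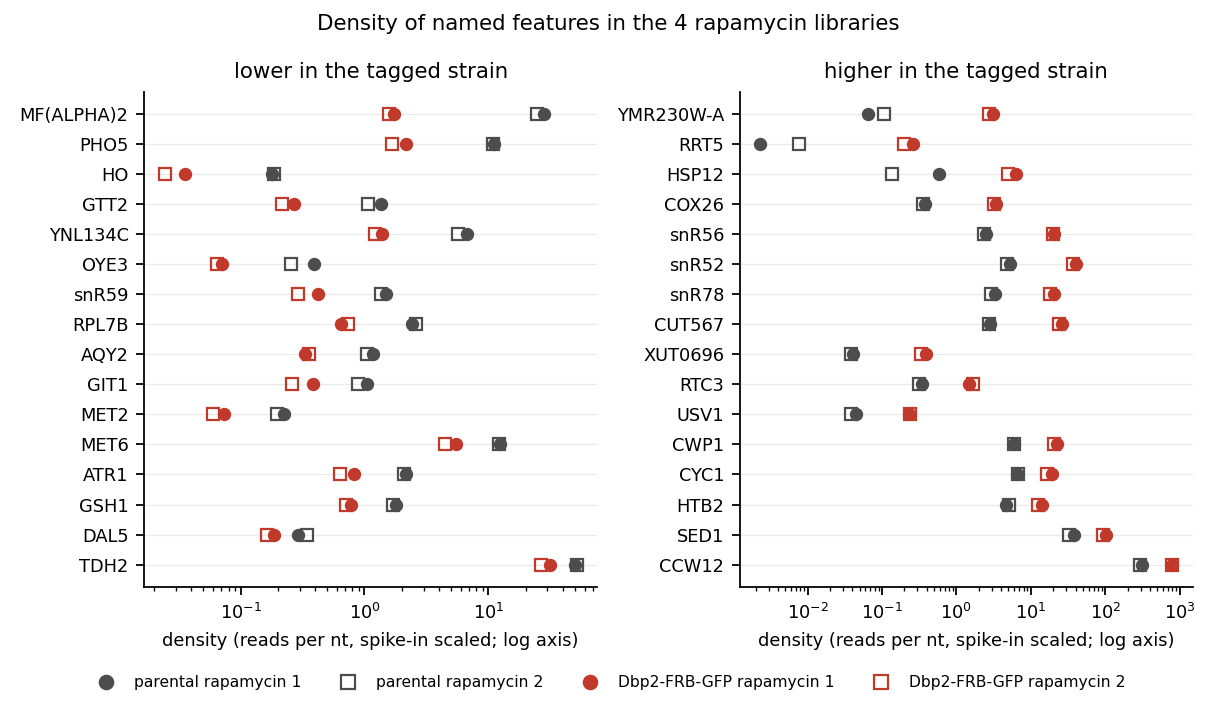
Density of named features in each of the 4 rapamycin libraries (reads per nucleotide on the spike-in scale, log axis); grey symbols are parental libraries and red symbols tagged ones. Left, features that fell, led by MF(ALPHA)2 from 28.0 and 24.9 to 1.73 and 1.58. Right, features that rose, led by YMR230W-A; groups do not overlap in any row.

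General stress genes, which Msn2 and Msn4 turn on, were among the groups that rose. Of 39 tested 12 rose (9.11% in all features) and 0 fell, with a list median of 0.95 against 0.59 over all features. HSP12, a small membrane-protecting protein (chrVI:107256-107585, plus strand, R64), read 0.580 and 0.138 against 6.25 and 4.94 (4.25 ± 0.48). The parental replicates differed widely, and both were far below the tagged ones. RTC3 read 0.349 and 0.311 against 1.46 and 1.66 (2.22 ± 0.15), and the transcription factor gene USV1 read 0.0450 and 0.0378 against 0.230 and 0.238 (2.32 ± 0.17). Catalase T, CTT1, rose by 1.49, the repressor gene XBP1 by 1.63, TMA10 by 1.94 and the cell wall gene SPI1 by 1.43. The count was 5 without parental rapamycin replicate 2. Of 33 heat shock and chaperone genes, HSP12 rose and HSP31 fell, and their median of 0.19 was below that of all features.

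At least 2 copies of AGGGG, the core of the stress response element, on either strand stood before 8 of the 12 stress genes that rose, 13 of the other 27 and 469 of all promoters (8.27%). The HSP12 promoter holds 3 copies close together, in capitals in this R64 stretch.
HSP12, chrVI:106806-106898 (plus strand): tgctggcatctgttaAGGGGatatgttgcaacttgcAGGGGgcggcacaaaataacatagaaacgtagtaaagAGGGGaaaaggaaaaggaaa

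Some highly expressed cell wall mannoprotein genes rose. CCW12, the most abundant of them, read 309 and 290 against 788 and 795 (1.40 ± 0.10, adjusted p = 9.75e-10). SED1 read 37.5 and 33.1 against 104 and 93.6 (1.48 ± 0.12), and CWP1 read 5.98 and 5.94 against 22.6 and 20.3 (1.85 ± 0.13). Replicates of each were close beside the distance between strains. CWP2 rose by 1.31, TIP1 by 1.41 and the iron-related mannoprotein FIT1 by 1.74. Of the 54 genes on the cell wall list 7 rose (13.0%, against 9.11% in all features and 4.11% in protein-coding features). The stress-induced glucan synthase gene GSC2 was the 1 that fell (-0.36). The list median of 0.58 was next to the 0.59 of all features and above the 0.49 of protein-coding features.

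Core histone genes rose together. Of 11 histone genes 7 rose, HTA2, HTB1, HTB2, HHT1, HHT2, HHF1 and HHF2, by 1.11 to 1.45, and the list median was 1.15. HTB2 read 4.66 and 5.11 against 14.1 and 12.6, 2.73-fold higher (1.45 ± 0.13). HHF1, a histone H4 gene, read 13.0 and 14.3 against 39.4 and 33.6 (1.41 ± 0.13). No histone gene named here had overlapping groups. Histone gene copies are alike and may share reads. The count was 3 with only the 4 libraries of the comparison in the fit and 4 with no filter on low values or no trend in the variance. It was 1 without parental rapamycin replicate 1, 3 without tagged rapamycin replicate 1 and 4 without parental rapamycin replicate 2 or without either untreated tagged library.

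Some genes of respiration and of growth without glucose rose. The medians of these nuclear gene lists lay near that of all features, while their shares that rose exceeded the 4.11% of protein-coding features. Of 49 nuclear genes of the respiratory chain and ATP synthase 5 rose (10.2%, against 9.11% in all features) and 0 fell. The list median was 0.69, against 0.59 in all features and 0.49 in protein-coding features. COX26, a small subunit of cytochrome oxidase (chrIV:691014-691214, plus strand, R64), read 0.383 and 0.359 against 3.43 and 3.17, 8.89-fold higher (3.13 ± 0.15, adjusted p = 4.64e-13). CYC1, the main cytochrome c gene, read 6.48 and 6.64 against 19.2 and 16.5 (1.44 ± 0.13). The other 3 were CYC7, QCR7 and ATP14, between 1.42 and 1.69. The count was 3 without parental rapamycin replicate 1. The 18 genes encoded by mitochondrial DNA had a median of 0.42, and 0 rose.

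Of 44 glucose-repressed genes 6 rose (13.6%, list median 0.64), among them ICL1 of the glyoxylate cycle (1.43) and the alcohol dehydrogenase gene ADH2 (1.40), and SPS19 fell. HXK1, a glucose-repressed hexokinase gene, read 0.851 and 0.668 against 2.27 and 2.40, and the glucose-signalling regulator gene MTH1 rose by 1.72. The hexose transporter gene HXT7 rose by 1.34, while its near-identical copy HXT6 missed the threshold on 2 of the scalings. The metallothionein gene CUP1-2 read 2.51 and 1.32 against 10.4 and 7.13 and its identical copy CUP1-1 read 1.49 and 0.489 against 5.63 and 4.98. Which copy such reads came from is uncertain, and CUP1-1 missed the threshold on the coding and quantile scales.

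Genes of meiosis and sporulation, silent or nearly so in growing haploid cells, rose from low levels. Of 38 tested 10 rose and 1 fell (SPS4), with a list median of 0.91. Members were admitted by their mean over all 8 libraries. Those barely read in parental cells were thus tested only where other libraries held more, which can raise this share and median. IME1, the master activator of meiosis, held 11 and 10 reads in the parental libraries and 32 and 36 in the tagged ones. RIM4, an RNA-binding meiotic regulator, held 176 and 176 against 407 and 313, and the chromosome synapsis gene SPO22 held 69 and 66 against 208 and 225. REC102, which acts in meiotic recombination, rose by 1.74 and the sporulation glucanase gene SPR1 by 1.51. The summed density of the 52 genes on the list was 1.73 and 1.75 in the parental libraries and 3.96 and 3.403 in the tagged ones. GAS2, a member described below by its place, held 0.162 and 0.151 of this against 0.601 and 0.582. RRT5, another such member, held 0.00232 and 0.00763 against 0.264 and 0.199. The sum is on the spike-in scale, where the median log2 difference of all features was 0.59. The count was 5 without parental rapamycin replicate 1 and 6 without tagged rapamycin replicate 1.

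Several of the features that rose most lay just behind a strongly transcribed gene on the same strand. YMR230W-A, a short reading frame (chrXIII:733268-733456, plus strand, R64), lies 126 nucleotides behind RPS10B and read 0.0642 and 0.105 against 3.12 and 2.72. It was 34.5-fold higher in the tagged strain (5.03 ± 0.20, adjusted p = 6.52e-14), while RPS10B differed by 0.65. RRT5 lies 298 nucleotides behind RPL29 and held 2 and 7 reads against 197 and 137. YBR032W, 264 nucleotides behind RPL4A, held 10 and 10 against 110 and 60. The sporulation gene SPO19, behind RPL5 at 372 nucleotides, held 1 and 0 reads against 19 and 18, and GAS2 lies 110 nucleotides behind YLR342W-A. YMR141C, SSP1 and UTP30 lie behind RPL13B, GND1 and TIF1 and rose by 2.05, 1.43 and 1.25. In the tagged strain all 8 stood well above both parental values, while the genes ahead of them differed by -0.24 to 0.83.

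Counts covered protein-coding and other reading frames with a known place, and the gene ahead was graded by its density in untreated parental cells. With a gene at a density of 10 or more within 500 nucleotides ahead 8 of 70 rose (11.4%). With no gene that close 163 of 3714 rose (4.39%). Their medians were 0.59 and 0.48. Among features under 0.1 reads per nucleotide in untreated parental cells the counts were 6 of 11 (54.5%) and 53 of 514 (10.3%). The medians there were 1.43 and 0.64. Features were admitted by their mean over all 8 libraries, tagged ones included. Those barely read in parental cells were thus tested only where other libraries held more, which can raise these shares and medians. RRT5, SPO19, GAS2 and SSP1 are also among the 10 meiosis genes that rose. The position was looked at after these leading features had been seen, and whether reads came from RNA that runs on from the gene ahead was not tested. Other short or little-studied reading frames rose without a high gene just ahead, among them YIR042C (2.59), YCR025C (2.55) and ADF1 (2.37).

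**Figure D4:**
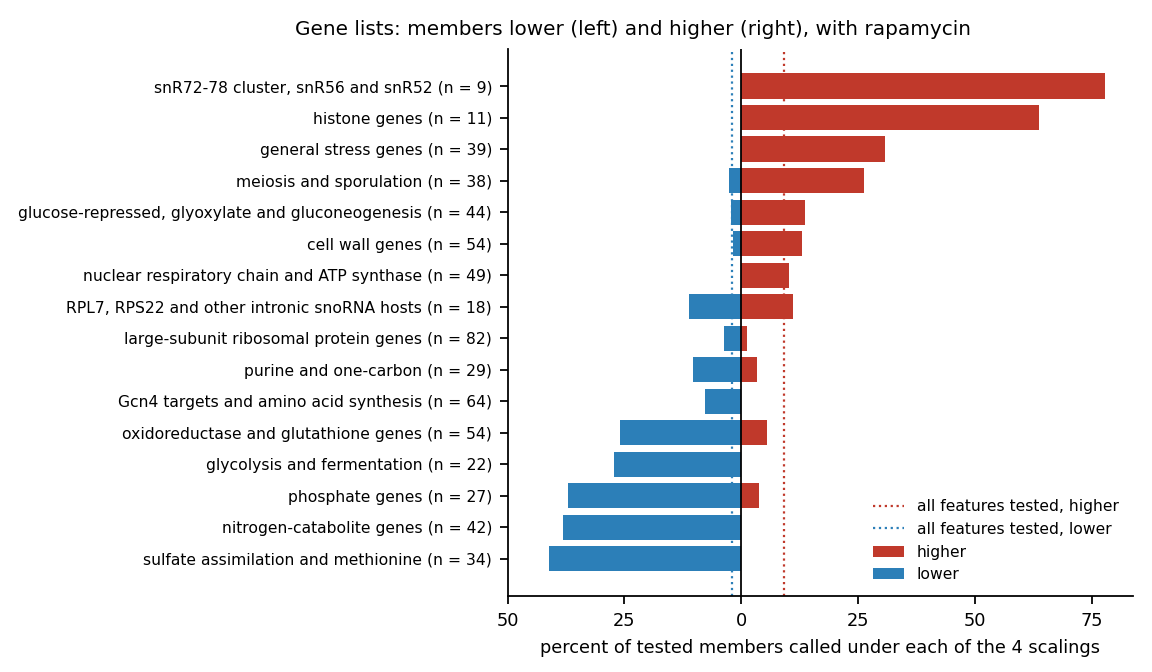
Share of tested members of each gene list that rose (right, red) or fell (left, blue) under each of the 4 scalings with rapamycin, for lists with at least 4 such members; n is the number tested and dotted lines are the shares over all features, 9.11 and 2.1%. Over protein-coding features these shares were 4.11 and 2.45%. Sulfur, nitrogen and phosphate genes have the largest shares that fell, and histone and snoRNA cluster genes the largest that rose.

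Small nucleolar RNAs guide the chemical modification of ribosomal RNA, and a few moved far beyond the rest. Of 76 tested 13 rose (17.1%) and 2 fell, and the class median was 0.70. snR56 read 2.53 and 2.34 against 20.8 and 19.8, 8.35-fold higher (3.06 ± 0.13, adjusted p = 8.83e-14). snR52, which RNA polymerase III transcribes, read 5.27 and 4.72 against 40.4 and 36.5 (2.94 ± 0.13). snR78, the first RNA of the snR78 to snR72 cluster, read 3.33 and 2.94 against 20.4 and 18.3 (2.62 ± 0.13). In each the tagged replicates were close to each other and far above the parental ones. Other members of the cluster rose less, snR74 by 1.48, snR75 by 1.27, snR73 by 1.25 and snR77 by 1.17. Of the 9 RNAs made up by that cluster, snR56 and snR52, 7 rose, or 4 without either parental rapamycin replicate. Over all snoRNAs the count was 8 and 7 without parental rapamycin replicates 1 and 2. With only the 4 libraries of the comparison in the fit it was 8, and 4 for these 9 RNAs.

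These RNAs, and snR59 that moved the other way, are C/D box snoRNAs, whose ends carry the boxes that hold their proteins. Their genes in R64 (RefSeq) follow with the C box letters TGATGA and the D box letters CTGA in capitals.
snR56, chrII:88190-88277 (plus strand): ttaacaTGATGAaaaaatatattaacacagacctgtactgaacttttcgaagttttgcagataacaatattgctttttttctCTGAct
snR52, chrV:431129-431220 (minus strand): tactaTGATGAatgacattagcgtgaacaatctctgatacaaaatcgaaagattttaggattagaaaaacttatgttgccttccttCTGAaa
snR78, chrXIII:297278-297364 (plus strand): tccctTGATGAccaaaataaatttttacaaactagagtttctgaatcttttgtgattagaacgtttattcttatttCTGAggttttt
snR59, chrXVI:173827-173904 (plus strand): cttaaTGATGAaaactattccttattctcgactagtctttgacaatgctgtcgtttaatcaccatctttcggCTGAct

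The strains also differed where a snoRNA lies inside an intron. snR59, in the intron of RPL7B, read 1.503 and 1.35 against 0.419 and 0.292, 4.01-fold lower (SE of 0.16 on the log2 scale). Its host RPL7B, a large-subunit ribosomal protein gene (chrXVI:173152-174702, plus strand, R64), read 2.40 and 2.58 against 0.652 and 0.741, 3.58-fold lower (-1.83 ± 0.14, adjusted p = 1.63e-09). The paralog RPL7A read 9.32 and 10.7 against 13.0 and 11.1, with a log2 difference of 0.26 that missed the threshold and turned to -0.23 on the coding scale, -0.41 on the snoRNA scale and -0.18 after quantile normalization. Of these 3 values those on the coding and quantile scales passed the threshold (adjusted p = 0.0121 and 0.0363). In the other direction, snR44, in an intron of RPS22B, read 27.8 and 25.2 against 70.4 and 75.05, and RPS22B itself read 5.15 and 4.85 against 18.5 and 17.8 (1.86 ± 0.12). Its paralog RPS22A read 42.5 and 48.3 against 69.6 and 56.6, a log2 difference of 0.47, which was -0.025 on the coding scale and -0.20 on the snoRNA scale. Host and snoRNA moved together in both pairs, and the deposited densities do not separate exon from intron or mature snoRNA from precursor. Of the 18 hosts and intronic snoRNAs listed, these 4 were the ones that moved.

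Genes for ribosomal proteins at large did not move apart from other genes. Of 82 large-subunit genes RPL41B rose and RPL7B, RPL8A and RPL3 fell, with a median of 0.55. Without parental rapamycin replicate 1 RPL41B no longer rose, and between 0 and 5 large-subunit genes rose when each library was left out in turn. Of 56 small-subunit genes RPS22B and RPS27A rose, with a median of 0.46. Of 111 ribosome biogenesis genes 3 rose, UTP9, IMP4 and LOC1. The count ran from 0, without parental rapamycin replicate 1, to 10 when each library was left out in turn. Factors that act on the RNA classes above were also near the median of all features. Of 23 genes of the nuclear exosome and its TRAMP cofactor, 19 were higher on the spike-in scale and 0 rose or fell under each scaling, with a median of 0.65. Of 44 genes of cytoplasmic decay the decapping genes DCP1 (1.26) and EDC1 (1.55) rose, and 0 rose without parental rapamycin replicate 1. Of 33 genes listed with the Nrd1 termination pathway URA8 and IMD2 fell, which are nucleotide synthesis genes known to be cut short by it, and NRD1 itself read 0.570 and 0.586 against 1.40 and 1.17, higher on 3 scales and short of the threshold on the snoRNA scale. Of 32 DEAD-box and DEAH helicase genes DBP6 rose (1.38). The helicase count ran from 0, without parental rapamycin replicate 1, to 3 when each library was left out in turn. Of 30 mRNA export genes 20 were higher on the spike-in scale and 0 rose or fell under each scaling.

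The same strains without rapamycin gave a comparison that shares no library with this one. Both comparisons came from 1 fit and share its filter and its estimate of each feature's spread. Their calls are therefore not independent tests. Without rapamycin the limma test called 4219 features higher (43.7%) and 266 lower (2.75%) on the spike-in scale, with a median of 0.36. Under each scaling 513 rose (5.31%) and 264 fell (2.73%). Of the 203 features that fell with rapamycin 179 also fell without it, which is 88.2% of the first list and 67.8% of the second. Of the 880 that rose 405 also rose without it, 46.0% of the first list and 78.9% of the second, and 856 were called higher there on the spike-in scale. Sizes were alike among features that fell, with a median of -0.66 in both comparisons. Among features that rose the medians were 1.49 with and 1.13 without rapamycin, beside 0.59 and 0.36 over all features. Both sets were picked by their values with rapamycin, which can enlarge the differences on that side. Across the 9656 features, which are not independent replicates, the 2 sets of differences had a Pearson r of 0.86 and a Spearman rho of 0.84.

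**Figure D5:**
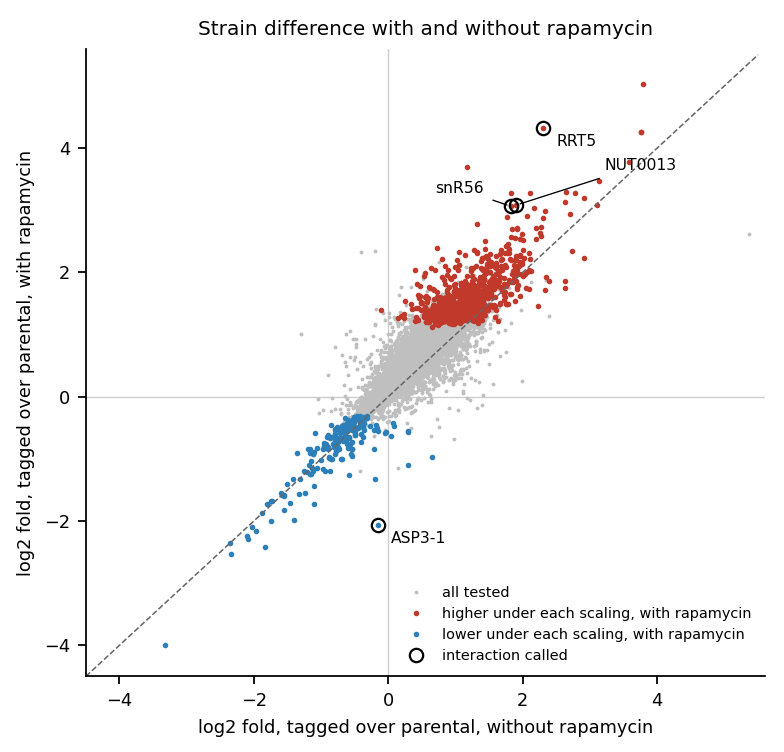
Log2 difference between strains with rapamycin (vertical) against that without (horizontal) for each tested feature on the spike-in scale; the dashed line marks equal differences. Features that fell with rapamycin (blue) had a median of -0.66 on both axes. Those that rose (red) had medians of 1.49 with and 1.13 without rapamycin, above the line. The 4 circled features are those whose difference changed with rapamycin by the test of the interaction.

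Named genes of the groups above show the sizes. The differences without rapamycin were -3.32 for MF(ALPHA)2, -2.35 for PHO5, -2.08 for GTT2, -1.32 for MET6 and -2.36 for HO. They were 2.91 for CUT567, 2.63 for COX26, 1.44 for CCW12 and 3.79 for YMR230W-A. All 14 sulfur genes, 10 phosphate genes and 14 oxidoreductase genes that fell with rapamycin were called lower without it on the spike-in scale, as were 13 of the 16 nitrogen genes. By the rule of each of the 4 scalings, the groups with members that rose held without rapamycin 8 cell wall genes against 7 with it, 0 histone genes against 7, 1 respiratory gene against 5, 4 genes of the snoRNA cluster with snR56 and snR52 against 7, and 7 general stress genes against 12. The difference between these counts was not tested. On the spike-in scale all members of these groups that rose with rapamycin were also called higher without it. They numbered 7 cell wall, 7 histone, 5 respiratory, 7 snoRNA and 12 general stress genes, beside 43.7% of all features called higher there.

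The interaction tests whether the strain difference itself changed with the drug. It called 4 of 9656 features (0.0414%), 3 higher (0.0311%) and 1 lower (0.0104%), while 935 had an unadjusted p under 0.05 (9.68%). The median standard error of an interaction was 0.23, so modest changes were not detectable with 2 libraries a group. snR56 read 2.13 and 2.40 in untreated parental and 7.96 and 8.15 in untreated tagged cells, so its difference grew from 1.83 to 3.06 (interaction 1.23 ± 0.18, adjusted p = 0.00849). NUT0013 grew from 1.90 to 3.08 (1.18 ± 0.20, adjusted p = 0.0211). RRT5 held 5 and 10 reads in untreated parental and 62 and 52 in untreated tagged cells, and its difference grew from 2.30 to 4.32. ASP3-1, an asparaginase gene with near-identical copies that share its reads, differed by -0.16 without and -2.07 with rapamycin, on 57 and 47 against 5 and 5 reads. The number called was 0 on the coding and quantile scales and 49 on the snoRNA scale. On the spike-in scale itself it was 1 with no filter on low values, 3 with no trend in the variance, 73 with a stricter filter and 8 to 126 leaving out a library, so the count is not stable.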

How the data were processed

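RNA was measured in 8 libraries, 4 groups of 2 biological replicates per the series' design text, which names no separate cultures; where replicates share a culture the p-values measure technical spread only. The submitters' processing notes name Trim Galore, HISAT2 2.2.0, the build R64, featureCounts 2.0.0 and DESeq2, and neither they nor the labels state how strand entered the counting. The table the authors deposited holds signal values, per the file headers read density per nucleotide, for 10891 features (10799 of yeast and 92 spike-ins). Each value is a whole number of reads divided by a length and by 1 factor per library, the factors matching spike-in median ratios; 100% of positive values came out whole within 0.01 reads. The shortest length giving whole reads was used, so for some features all read numbers are too small by the same factor; 683 of 5897 protein-coding features were whole at the RefSeq gene length. 

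Differences were tested with limma 3.58.1 (R 4.3.3) with a trend, on log2(density + 0.00721), the 5th percentile of positive values, with all 8 libraries in 1 fit (residual degrees of freedom 4, prior 18.0). Those whose mean density over all 8 libraries, tagged ones included, lay below 0.0133, the 10th percentile, were left out. Tests were two-sided with Benjamini-Hochberg adjustment over 9656 features at 0.05, and folds on this scale understate the change of low features. With 6 arrangements of 2 against 2 libraries, an exact permutation test cannot reach 0.05. The fit was repeated with densities scaled to the median protein-coding feature, to snoRNAs and by quantiles. Genes named are DBP2 with its neighbours and the genotype markers, protein-coding features called and within the 20 highest or lowest differences, by lowest p up to 5 called genes per list and 6 features per noncoding class, close paralogs, and features of the interaction; other members are named after their values were seen. The comparison, the lists and the tests were chosen with earlier results of these data known. Promoters and snoRNA genes came from RefSeq for R64 (Biopython 1.88); reading and plotting used Python 3.11.15, pandas 2.3.3, numpy 2.4.6 and matplotlib 3.10.9. Scripts were tested on simulated data. Alternatives were other pseudocounts, filters, scalings, spreads, a replicate block, voom on the recovered reads and leaving out each library; the counts under each of the 4 scalings were added after seeing the data.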

Additional observations from a re-analysis of the deposited data

Results flagged for a closer look

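The strain difference with rapamycin differed from that without it, by the limma test of the interaction on the spike-in scale, for 4 features. The change in the log2 difference was 1.23 for snR56, 1.18 for NUT0013, 2.01 for RRT5 and -1.91 for ASP3-1. The adjusted p was 0.00849 for snR56 and 0.0211 for each of the others. Each group held 2 libraries. ASP3-1 rested on 5 reads in each tagged rapamycin library.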

How the results depend on the processing

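Of 130 features named, 119 kept their direction and call under every alternative run, 121 under the other scalings and 123 without each library. Scaled to protein-coding features, to snoRNAs and by quantiles, the counts with rapamycin were 2969, 1233 and 1963 higher and 1743, 1011 and 2242 lower. Without rapamycin they were 2797, 650 and 1625 higher and 1381, 1967 and 1886 lower. Log2 differences that changed sign were those of DBP2 (-0.14, snoRNA), MF(ALPHA)1 (-0.41, -0.59 and -0.44; -0.034 to 0.21 leaving out a library), TDH3 (-0.047, -0.23 and -0.088), RPS22A (-0.025 coding, -0.20 snoRNA) and RPL7A (-0.23, -0.41 and -0.18). The interaction called 4 features, 3 with no trend or the lowest pseudocount, 9 with a pseudocount at the 25th percentile, 1 without a filter, 73 with a filter at the 25th percentile, 0, 49 and 0 under the scalings, 16 with voom and 8 to 126 leaving out a library.

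Leaving out each library gave 5286 to 7220 higher and 155 to 248 lower with rapamycin, and 2458 to 4664 higher and 157 to 319 lower without. Features that rose under each scaling numbered 499 to 850, and those that fell 139 to 240. Calls were lost by DBP2 on the other scales and without replicate 1 of either rapamycin group, by PGK1 without each rapamycin library or the trend, by RPS22A on the other scales and without tagged replicate 1, by NRD1 on the snoRNA scale, by GAP1 without tagged replicate 2, and by HXT6 and CUP1-1 on the coding and quantile scales. STE3 gained calls on the other scales and without tagged replicate 1, and RPL7A without tagged replicate 2. Replicate numbers did not pair the samples (correlations of deviations -0.13 to 0.15): a replicate block gave 6600 higher and 193 lower with rapamycin, and 101 interaction calls. The cause of these movements was not tested. Depth limits statements on features with few reads.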

Other observations

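Other gene lists held few members that moved under each of the 4 scalings with rapamycin. Of 21 trehalose and glycogen genes 3 rose, with GAC1 the highest (1.84), and GIP2, another phosphatase regulator of glycogen, read 0.0324 and 0.0322 against 0.135 and 0.129. Of 9 galactose genes MTH1 rose, and of 16 retrograde genes the pyruvate carboxylase gene PYC1 fell (-0.60). Of 29 purine and one-carbon genes GCV3 rose and 3 fell, and 0 of these fell without tagged rapamycin replicate 2. Of 30 iron genes FIT1 rose and the ferric reductase gene FRE1 fell (-0.67), and of 15 copper genes COX17 and CUP1-2 rose and CCS1 fell. Of 26 vitamin B6 and thiamine genes THI4 rose (1.59) and SNO1 and SNZ1 fell. Of 13 haploid-specific genes AGA1 rose (1.25) and HO and FAR1 fell. Of 12 genotype markers 0 moved, with a median of 0.28.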
